A study of Homo sapiens with 12 samples.

Results

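Genes of protein entry into the endoplasmic reticulum (ER) and of vesicle traffic between the ER and the Golgi were followed in HK-2 cells, a human line immortalised from epithelium of the renal proximal tubule. The list names 47 genes in 4 functional groups: translocation and signal peptide removal, the COPII coat with the SNARE SEC22B, the cargo and KDEL receptors, and the COPI coat with the GTPase ARF4. A gene was read through probe sets annotated to its symbol alone, and of these the one with the highest mean over all arrays stood for it. That gave values for 44 of the 47 genes, out of 19775 genes with such a probe set. All 44 passed the filter on low values, which 10683 genes passed. SEC61G, TMED7 and KDELR2 had no probe set with their symbol alone and were not analysed here.

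The 4 groups were cells exposed to the compound labelled CdCl for 12 h, cells exposed to the control vehicle for 12 h, cells exposed to CdCl for 48 h and cells exposed to vehicle for 48 h. Each group held 3 arrays, labelled as biological replicates, of 12 in all. The cells of every group grew in medium that held insulin, transferrin, selenite, hydrocortisone and epidermal growth factor, and were treated near confluence. The labels used here give no dose. The study looked for expression signatures of kidney toxicity, and HK-2 is a single immortalised line.

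Proteins bound for secretion or for membranes start with a signal sequence that the signal recognition particle (SRP) binds on the ribosome and delivers to its receptor on the ER. The chain then passes the SEC61 channel, helped by the TRAP complex and SEC62 and SEC63, and the signal peptidase cuts the signal off. Folded cargo leaves in COPII vesicles, built by the GTPase SAR1 with the inner coat SEC23 and SEC24 and the outer coat SEC13 and SEC31. COPI vesicles, built by ARF GTPases and the coatomer, carry escaped ER residents and recycling receptors back. Proximal tubule cells carry many transporters and receptors that take this route to their membranes.

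On the deposited log2 scale, array medians lay between 2.97 and 3.04, and replicates of a group correlated at 0.9965 to 0.9982 against 0.9731 to 0.989 between groups. At 12 h the values of all tested genes were shifted: the median difference between CdCl and control arrays was -0.16. Poly-A spike-ins, which are RNAs added to every sample as controls, averaged 7.32 ± 0.01 in CdCl cells and 6.84 ± 0.14 in control cells at 12 h, and 6.60 ± 0.53 and 6.40 ± 0.11 at 48 h (log2, SD, n = 3 each). Their part in the results was not tested. Replicate 2 of the CdCl arrays at 48 h read 5.99 for these spike-ins, against 6.92 and 6.89 for its replicates. The 3′ minus 5′ signal of GAPDH, a sign of RNA quality, was 0.0, -0.01 and -0.05 in CdCl cells at 12 h. In control cells at 12 h it was 0.02, 0.15 and 0.20, with no overlap, while that of ACTB overlapped between these groups. The part of RNA quality in the 12 h results was not tested. A list for proximal tubule epithelium held 19 genes with a probe set, some of them, such as KRT8, KRT18 and EPCAM, general to epithelia. Of the 19, 10 lay below 4 on every array, among them CUBN, LRP2, AQP1 and SLC34A1. PAX8, CDH6, KRT8, KRT18 and EPCAM were among the 9 that passed the filter. Of those 9, 0 rose and 5 fell at 12 h, where 16.7% of all tested genes were called higher and 39.7% lower. At 48 h, 2 rose and 3 fell, where 26.5% and 28% of all tested genes were called. Of 9 markers of other renal and blood cells with a probe set, 7 lay below 4 on every array and only AQP2 passed the filter.

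Promoters were read for 39 of the 44 genes in RefSeq (GRCh38.p14), as the 250 bases before the annotated start. XBP1 and ATF6, factors of the unfolded protein response, are known to bind a motif with the core TGACGTGG. These letters, on either strand, stood in 5 of the 39 promoters (12.8%), those of SEC62, SEC24A, KDELR3, COPB1 and COPB2. They stood in 182 of 27305 RefSeq promoters (0.667%) and in 70 of the 8864 promoters of tested genes (0.79%). CCACG was found in 71.8% of the members' promoters and 45.1% of those of tested genes, and CCAAT in 38.5% and 35.7%. The full ER stress element (ERSE), which joins both with a spacer, the related ERSE-II and the cyclic AMP element TGACGTCA were found in 0 of the 39, against 0.147%, 0.124% and 3.01% of the promoters of tested genes. CCACG is part of TGACGTGG read on the other strand and, like CCAAT, of both stress elements, so those counts overlap. The motifs were chosen with results of these data known, and a match describes letters only. The 4 promoters below are shown because their genes had calls in different directions. Through the brightest probe sets, SEC24A had the largest rise of any member at 12 h and COPB2 was higher at 48 h. KDELR3 was lower at 12 h and higher at 48 h, and SEC62 was lower at both times. The promoter of COPB1, a gene with no call at either time, is not shown. Each runs 5′ to 3′ on the gene's strand, and capitals mark TGACGTGG or, where the match is on the other strand, its reverse complement.
SEC24A, chr5:134648535-134648784, plus strand: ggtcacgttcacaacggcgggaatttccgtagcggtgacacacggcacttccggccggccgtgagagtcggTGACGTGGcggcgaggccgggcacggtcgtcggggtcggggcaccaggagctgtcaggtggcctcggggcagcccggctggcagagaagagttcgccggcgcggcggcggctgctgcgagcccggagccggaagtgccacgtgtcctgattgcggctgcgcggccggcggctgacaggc
COPB2, chr3:139389681-139389930, minus strand: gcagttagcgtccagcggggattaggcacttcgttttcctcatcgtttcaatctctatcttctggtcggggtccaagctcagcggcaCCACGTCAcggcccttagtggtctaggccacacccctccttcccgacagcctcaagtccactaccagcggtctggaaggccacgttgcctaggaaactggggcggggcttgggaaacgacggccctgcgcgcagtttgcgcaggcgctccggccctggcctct
KDELR3, chr22:38467846-38468095, plus strand: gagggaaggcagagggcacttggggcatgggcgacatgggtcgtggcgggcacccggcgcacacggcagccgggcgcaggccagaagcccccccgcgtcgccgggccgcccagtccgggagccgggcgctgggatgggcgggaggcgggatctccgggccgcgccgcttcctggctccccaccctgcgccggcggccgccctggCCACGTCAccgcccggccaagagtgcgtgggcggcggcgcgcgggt
SEC62, chr3:169966557-169966806, plus strand: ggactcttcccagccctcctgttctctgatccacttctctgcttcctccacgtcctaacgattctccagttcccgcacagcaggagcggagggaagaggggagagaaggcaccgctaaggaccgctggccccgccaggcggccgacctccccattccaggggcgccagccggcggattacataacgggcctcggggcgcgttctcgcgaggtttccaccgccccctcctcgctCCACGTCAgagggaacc

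The motif began at position -179 in the SEC24A promoter, -163 in COPB2, -46 in KDELR3 and -17 in SEC62, counted back from the start.

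The first comparison asked what CdCl did to these genes after 12 h. Of the 44 genes, 14 were higher in CdCl cells, 7 were lower and 23 did not pass the test (limma on all 12 arrays, Benjamini-Hochberg over all 10683 genes, threshold 0.05). Among all tested genes, 16.7% were called higher and 39.7% lower. The median difference was 0.05 for the members and -0.16 for all tested genes. With each array centred on its median over the tested genes, an alternative chosen after the data were seen, the split was 23 higher and 2 lower. KDELR1 and TMED3 were the 2. In that setting, 2611 of all 10700 tested genes were called higher and 2827 lower. After 48 h, 26 members were higher, 2 lower and 16 not called, against 26.5% and 28% of all tested genes, and the median was 0.28 against -0.02. Of the members, 11 were higher at both times, as were 11.4% of all tested genes. A further 12 were called higher at 48 h and not at 12 h, as were 11.1% of all tested genes, and 3 at 12 h and not at 48 h, as were 4.15%. SEC24C, TMED3 and KDELR3, 3 of the 44, were lower at 12 h and higher at 48 h, a pattern of 4.09% of all tested genes. In bulk RNA, fewer cells of a kind and less RNA per cell cannot be told apart.

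**Figure D1:**
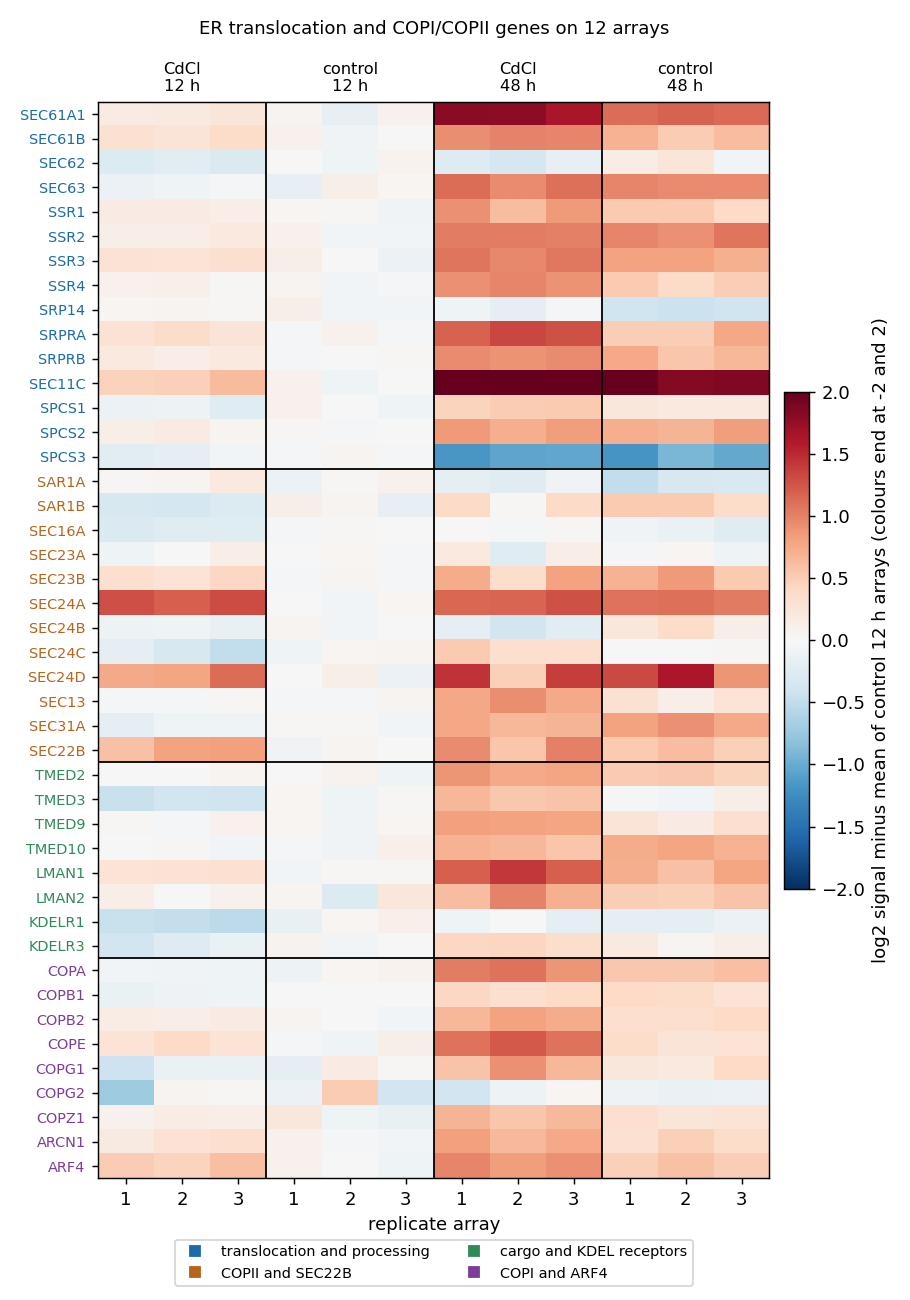
Log2 signal of the 44 genes on each of the 12 arrays, as the difference from the gene's mean over the control arrays at 12 h. Rows are genes, coloured by group, and columns are replicate arrays. SEC24A, SEC24D and SEC22B are high on the CdCl arrays at 12 h, SEC11C and SEC61A1 are highest at 48 h, and SPCS3 is low at 48 h in CdCl and control cells.

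Among the genes of translocation and signal peptide removal, 6 of 15 were higher in CdCl cells at 12 h and 1 was lower, and 10 were higher and 1 lower at 48 h. Of all tested genes, 16.7% were higher and 39.7% lower at 12 h, and 26.5% and 28% at 48 h. Through the brightest probe sets, the largest response in this group belonged to SEC11C, a catalytic subunit of the signal peptidase. It read 7.83, 7.85 and 8.0 in CdCl cells at 12 h, against 7.45, 7.29 and 7.36 in control cells. Its 48 h values were 10.40, 10.29 and 10.35 in CdCl cells, against 9.47, 9.21 and 9.22 in control cells. CdCl arrays lay above control arrays at both times, and both groups lay far higher at 48 h. The rise was 0.53 ± 0.08 at 12 h (1.44-fold, adjusted p = 0.00028) and 1.05 ± 0.08 at 48 h (2.07-fold, adjusted p = 1.1e-06), here and below as the log2 difference ± SE of the fit. The other subunits of the peptidase had smaller differences: SPCS1 was higher by 0.29 at 48 h, while SPCS2 differed by 0.10 and 0.06 and SPCS3 by -0.15 and -0.05 at 12 h and 48 h, with no call. These are values of the brightest probe set. The other set of SPCS2 was called higher at both times (0.39, adjusted p = 0.0017, and 0.33, adjusted p = 0.0046, over all probe sets), as were the dimmer sets of SPCS3, by 0.69 and 1.26 at 12 h and 0.74 and 0.40 at 48 h.

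SEC61A1 encodes the pore-forming subunit of the channel. The 48 h arrays gave 12.02, 12.01 and 11.86 in CdCl cells, against 11.34, 11.40 and 11.36 in control cells, with no overlap. The rise was 0.60 ± 0.08 (1.52-fold, adjusted p = 4.7e-05). At 12 h it was 0.20 ± 0.08 (adjusted p = 0.041), a call that ended without any 1 of the CdCl arrays at 12 h, control replicate 2 at 12 h, or control replicate 1 or 3 at 48 h (adjusted p of 0.051 to 0.17). SEC61B, a small subunit of the channel, read 11.96, 11.90 and 12.01 in CdCl cells at 12 h, against 11.73, 11.58 and 11.65 in control cells. Its difference was 0.30 ± 0.07 at 12 h (adjusted p = 0.0028) and 0.36 ± 0.07 at 48 h (adjusted p = 0.00097).

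SEC62, which takes part in post-translational import and in ER turnover, went the other way. At 48 h it read 11.70, 11.63 and 11.80 in CdCl cells, against 12.11, 12.20 and 11.91 in control cells. It fell by 0.36 ± 0.08 (1.29-fold lower, adjusted p = 0.0029), and by 0.26 ± 0.08 at 12 h (adjusted p = 0.018). The 12 h call ended without CdCl replicate 3 (adjusted p = 0.052) or control replicate 3 at 12 h (adjusted p = 0.064), and with arrays centred on the tested genes (-0.11, adjusted p = 0.27). Its partner SEC63 differed by -0.08 and 0.10, with no call at either time, while 1 of its dimmer probe sets was called higher at both (0.64 and 0.21).

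The receptor of SRP was higher at both times. SRPRA, the subunit that binds SRP, read 9.38, 9.53 and 9.47 in CdCl cells at 48 h, against 8.69, 8.69 and 8.97 in control cells. The rise was 0.68 ± 0.09 at 48 h (1.60-fold, adjusted p = 4.3e-05) and 0.30 ± 0.09 at 12 h (adjusted p = 0.011). SRPRB, its membrane anchor, was higher by 0.27 at 48 h and by 0.18 at 12 h (adjusted p = 0.037), where leaving out any 1 of the 6 arrays of 12 h ended the call (adjusted p of 0.051 to 0.099). SRP14, a protein of the particle itself, was higher by 0.30 at 48 h. Of the TRAP complex, which stands beside the channel, SSR3 was higher by 0.29 at 12 h, and SSR1, SSR3 and SSR4 were higher by 0.31, 0.25 and 0.47 at 48 h. SSR2 differed by 0.15 and 0.03, with no call.

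**Figure D2:**
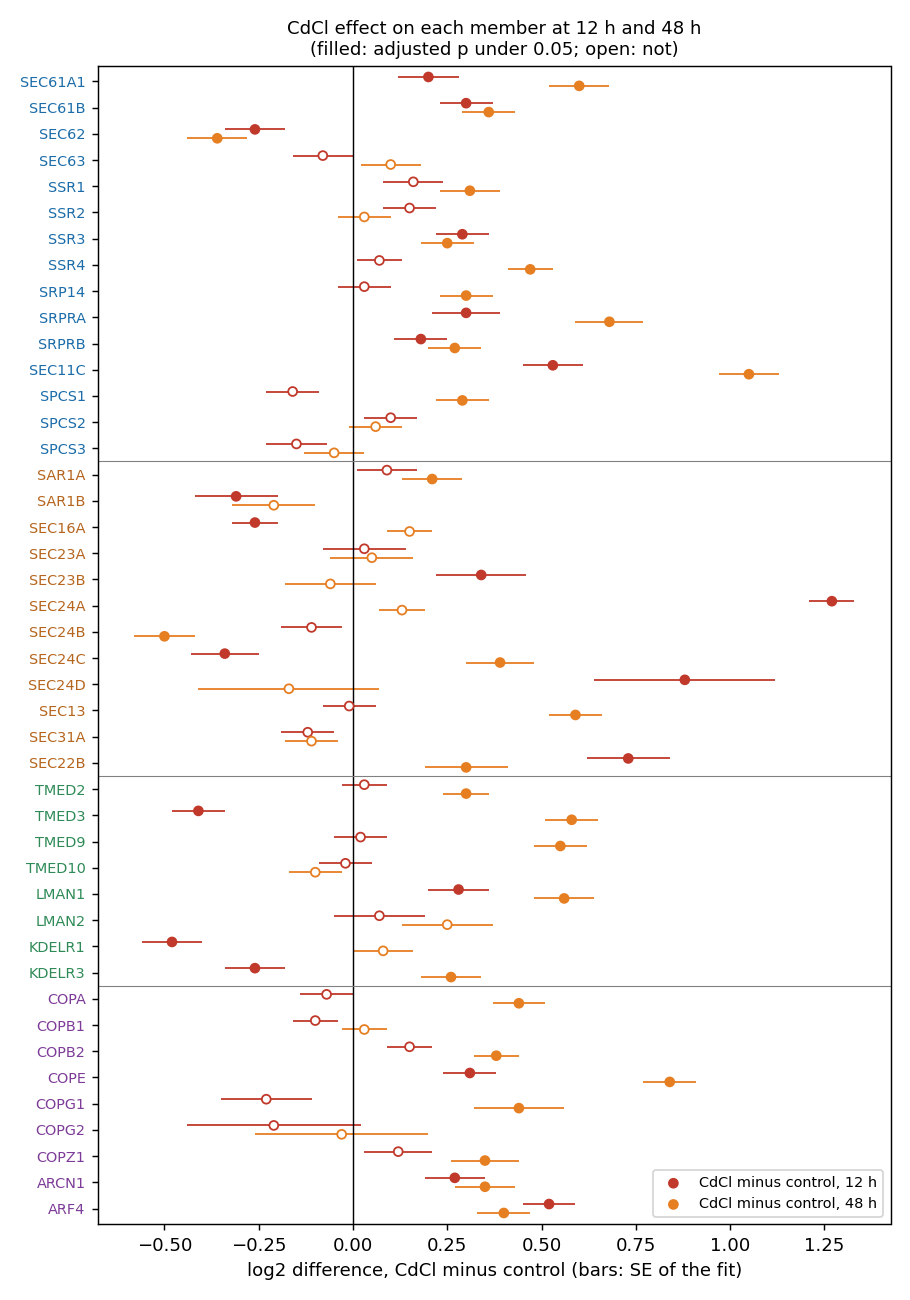
Log2 difference between CdCl and control cells at 12 h (red) and 48 h (orange) for each of the 44 genes, with the SE of the fit. Filled points passed the test. SEC24A stands out at 12 h with 1.27, and SEC11C with 1.05 and COPE with 0.84 lead at 48 h, while SEC24B and SEC62 are the 2 filled points left of 0 at 48 h.

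Through the brightest probe sets, the COPII group held the largest differences at 12 h. Of its 12 genes, 4 were higher in CdCl cells, 3 were lower and 5 were not called. At 48 h the counts were 4, 1 and 7. The shares of all tested genes were 16.7% higher and 39.7% lower at 12 h, and 26.5% and 28% at 48 h. The 4 SEC24 paralogues, which bind cargo in the inner coat, split. SEC24A read 10.57, 10.48 and 10.59 in CdCl cells at 12 h, against 9.29, 9.22 and 9.32 in control cells, more than 1 log2 unit apart. The rise was 1.27 ± 0.06 (2.41-fold, adjusted p = 3.3e-08). Its 48 h values were 10.43, 10.45 and 10.56 in CdCl cells and 10.36, 10.38 and 10.32 in control cells, a difference of 0.13 ± 0.06 (adjusted p = 0.11). Its dimmer probe set was called higher at 48 h (0.41, adjusted p = 0.0067 over all probe sets).

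SEC24D also rose at 12 h, with a wider spread between arrays. It read 9.78, 9.81 and 10.13 in CdCl cells, against 9.03, 9.14 and 8.91 in control cells, a rise of 0.88 ± 0.24 (1.84-fold, adjusted p = 0.0083). The 48 h arrays gave 10.46, 9.50 and 10.41 in CdCl cells and 10.34, 10.63 and 9.91 in control cells. The groups overlapped, replicate 2 of the CdCl arrays lay lowest, and the difference was -0.17 ± 0.24 (adjusted p = 0.59). Without that array the 48 h difference was 0.14 (adjusted p = 0.54).

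SEC24C fell at 12 h and rose at 48 h. It read 8.55, 8.42 and 8.24 in CdCl cells at 12 h, against 8.65, 8.78 and 8.80 in control cells. At 48 h it read 9.26, 9.07 and 9.08 in CdCl cells, against 8.73, 8.74 and 8.76 in control cells. The differences were -0.34 ± 0.09 (adjusted p = 0.0054) and 0.39 ± 0.09 (adjusted p = 0.0024). With arrays centred on the tested genes, the 12 h fall of SEC24C was no longer called (-0.19, adjusted p = 0.092). SEC24B read 9.96, 9.80 and 9.94 in CdCl cells at 48 h, against 10.39, 10.53 and 10.27 in control cells. It fell by 0.50 ± 0.08 (1.41-fold lower, adjusted p = 0.0002), with no call at 12 h (-0.11 ± 0.08, adjusted p = 0.23).

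SEC23A and SEC23B encode the inner coat protein that speeds GTP hydrolysis by SAR1. SEC23B read 11.34, 11.28 and 11.42 in CdCl cells at 12 h, against 10.97, 11.07 and 10.98 in control cells, a rise of 0.34 ± 0.12 (adjusted p = 0.026). The call ended without CdCl replicate 1 or 3 or control replicate 1 or 3 at 12 h (adjusted p of 0.057 to 0.082). At 48 h SEC23B read 11.75, 11.36 and 11.81 in CdCl cells and 11.70, 11.86 and 11.54 in control cells, with overlap and no call (-0.06 ± 0.12), while its dimmer probe sets were called higher at 48 h (0.36 and 0.38). SEC23A read 11.17, 11.26 and 11.39 in CdCl cells at 12 h and 11.24, 11.29 and 11.22 in control cells. Its 48 h values were 11.44, 11.00 and 11.38 in CdCl cells and 11.21, 11.29 and 11.16 in control cells. Its differences were 0.03 and 0.05, with 95% intervals of -0.21 to 0.26 and -0.18 to 0.29.

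SAR1A and SAR1B encode the GTPase that starts coat assembly. SAR1B read 9.88, 9.85 and 9.92 in CdCl cells at 12 h, against 10.31, 10.25 and 10.03 in control cells, and fell by 0.31 ± 0.11 (adjusted p = 0.023). That call ended without CdCl or control replicate 1 or 2 at 12 h (adjusted p of 0.055 to 0.087) and with arrays centred on the tested genes (-0.17, adjusted p = 0.17). SAR1A read 9.76, 9.79 and 9.92 in CdCl cells at 12 h and 9.62, 9.76 and 9.82 in control cells, overlapping, with a difference of 0.09 ± 0.08. The 48 h arrays gave 9.55, 9.49 and 9.66 in CdCl cells, against 9.24, 9.41 and 9.42 in control cells. That difference of 0.21 ± 0.08 (adjusted p = 0.047) stayed called only without CdCl replicate 3 or control replicate 1 or 3 at 12 h, or CdCl replicate 2 or control replicate 3 at 48 h (adjusted p of 0.055 to 0.17 without any of the others). The dimmer probe sets of SAR1A gave larger 48 h differences, 0.97 (adjusted p = 6.7e-05 over all probe sets) and 1.72 (adjusted p = 3e-05). SAR1B at 48 h read 10.58, 10.23 and 10.59 in CdCl cells and 10.72, 10.73 and 10.57 in control cells, with no call (-0.21 ± 0.11).

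SEC16A, the scaffold of ER exit sites, read 8.89, 8.94 and 8.93 in CdCl cells at 12 h, against 9.14, 9.21 and 9.18 in control cells. It fell by 0.26 ± 0.06 (adjusted p = 0.0036), and with arrays centred on the tested genes it differed by -0.11 (adjusted p = 0.17). SEC13, a protein of the outer coat and of the nuclear pore, was called at 48 h and not at 12 h. At 48 h it read 11.29, 11.44 and 11.27 in CdCl cells, against 10.81, 10.64 and 10.79 in control cells, a rise of 0.59 ± 0.07 (adjusted p = 3e-05). Its difference at 12 h was -0.01 ± 0.07. SEC31A, the other outer coat protein, differed by -0.12 and -0.11, with no call.

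SEC22B, a SNARE that helps vesicles fuse between ER and Golgi, was higher at both times. It read 12.23, 12.45 and 12.47 in CdCl cells at 12 h, against 11.58, 11.70 and 11.66 in control cells, a rise of 0.73 ± 0.11 (1.66-fold, adjusted p = 0.0002). Its 48 h values were 12.59, 12.21 and 12.66 in CdCl cells, against 12.18, 12.26 and 12.12 in control cells, and replicate 2 fell among the controls. That difference was 0.30 ± 0.11 (adjusted p = 0.042) and 0.44 without CdCl replicate 2 (adjusted p = 0.0017). Apart from that array, the call held only without CdCl replicate 1 or 3 at 12 h (adjusted p of 0.051 to 0.16 without any of the others).

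**Figure D3:**
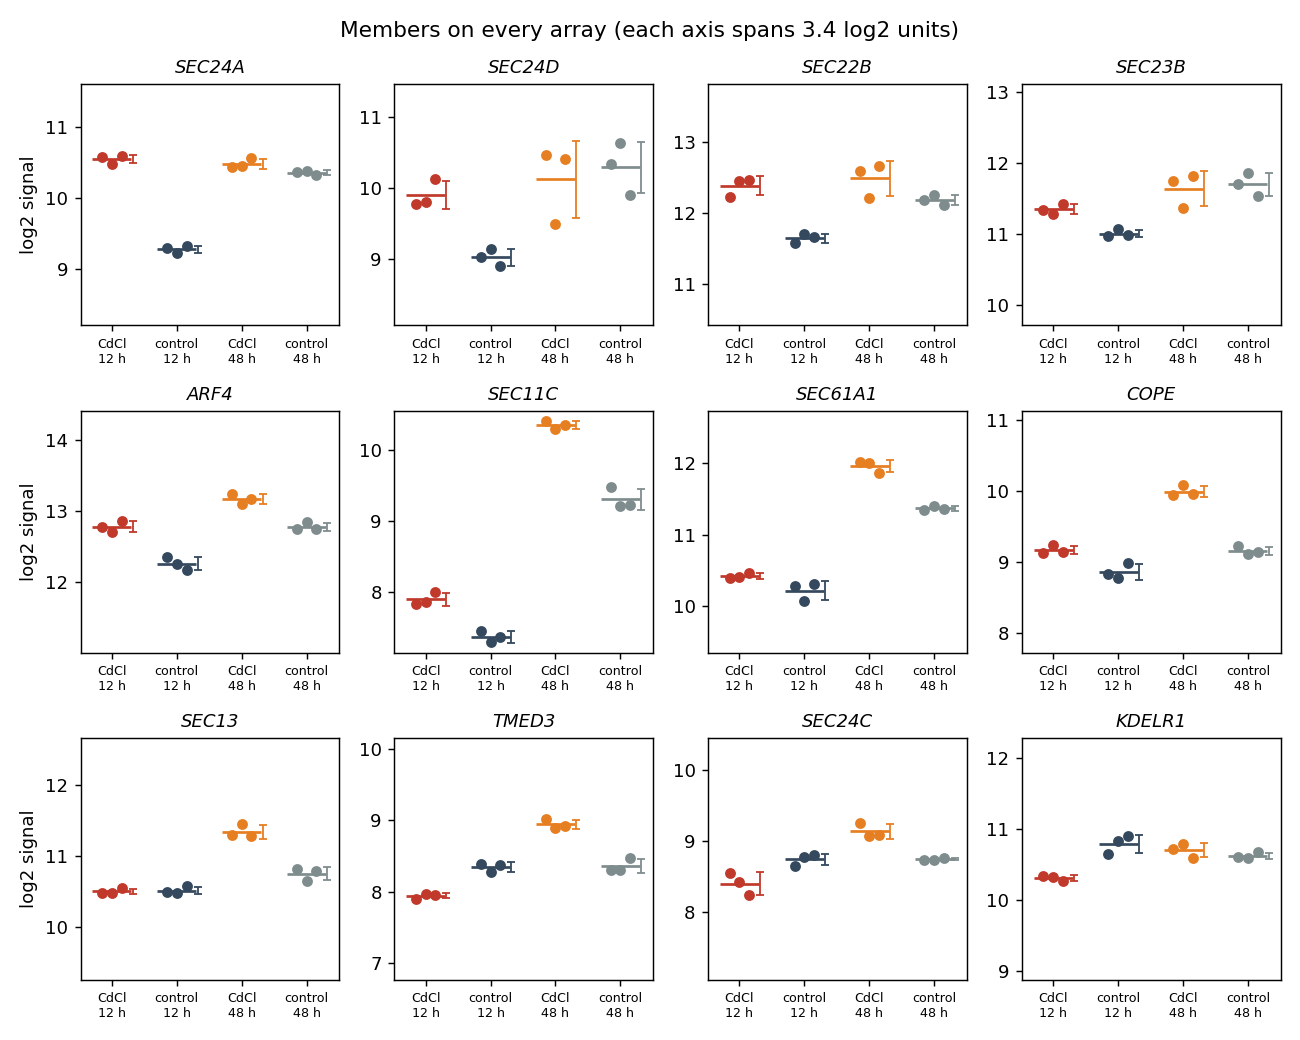
Log2 signal of 12 genes on every array, as points, with a line at each group's mean and bars of 1 SD to its right, n = 3 each. Within each time the CdCl arrays stand left of the control arrays. SEC24A has its low values in control cells at 12 h alone, SEC24D, SEC22B and SEC23B have a low replicate 2 among the CdCl arrays at 48 h, and TMED3 and SEC24C lie below the controls at 12 h and above them at 48 h.

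Among the receptors, 1 of 8 was higher in CdCl cells at 12 h and 3 were lower, while 5 were higher and 0 lower at 48 h. Of all tested genes, 16.7% were higher and 39.7% lower at 12 h, and 26.5% and 28% at 48 h. TMED3 belongs to the p24 family, cargo receptors that cycle between ER and Golgi. It read 7.90, 7.97 and 7.95 in CdCl cells at 12 h, against 8.39, 8.27 and 8.38 in control cells. The 48 h arrays gave 9.02, 8.89 and 8.92 in CdCl cells, against 8.31, 8.30 and 8.47 in control cells. The groups did not overlap at either time and stood in opposite order. The differences were -0.41 ± 0.07 (1.33-fold lower, adjusted p = 0.00045) and 0.58 ± 0.07 (adjusted p = 3e-05).

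TMED9, of the same family, read 12.26, 12.24 and 12.23 in CdCl cells at 48 h, against 11.70, 11.60 and 11.78 in control cells. The rise was 0.55 ± 0.07 (1.46-fold, adjusted p = 3e-05), with a difference of 0.02 at 12 h. TMED2 was higher by 0.30 at 48 h, and TMED10 differed by -0.02 and -0.10, with no call, while its dimmer probe set was called higher at both times (0.37 and 0.21). LMAN1, the lectin that carries some glycoproteins, clotting factors among them, out of the ER, read 12.51, 12.74 and 12.52 in CdCl cells at 48 h, against 12.05, 11.91 and 12.11 in control cells. The rise was 0.56 ± 0.08 at 48 h (1.48-fold, adjusted p = 8.9e-05) and 0.28 ± 0.08 at 12 h (adjusted p = 0.0091). LMAN2, a related lectin, differed by 0.07 and 0.25, with no call.

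The KDEL receptors return escaped ER chaperones. KDELR1 read 10.34, 10.32 and 10.26 in CdCl cells at 12 h, against 10.64, 10.83 and 10.89 in control cells, and fell by 0.48 ± 0.08 (1.40-fold lower, adjusted p = 0.00029). At 48 h it read 10.71, 10.79 and 10.59 in CdCl cells and 10.60, 10.59 and 10.67 in control cells, with overlap and no call (0.08 ± 0.08). Its other probe set was called higher at 48 h (0.25, adjusted p = 0.031 over all probe sets). KDELR3 read 10.84, 10.96 and 11.09 in CdCl cells at 12 h, against 11.29, 11.16 and 11.23 in control cells. Its 48 h values were 11.63, 11.65 and 11.57 in CdCl cells, against 11.42, 11.27 and 11.36 in control cells. It fell by 0.26 ± 0.08 at 12 h (adjusted p = 0.012) and was higher by 0.26 ± 0.08 at 48 h (adjusted p = 0.012). The 12 h fall of KDELR3 was not called without CdCl replicate 1 at 12 h (-0.20, adjusted p = 0.057) or with arrays centred on the tested genes (-0.11, adjusted p = 0.26).

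Among the COPI genes, 3 of 9 were higher in CdCl cells at 12 h and 0 lower, and 7 were higher and 0 lower at 48 h. Of all tested genes, 16.7% were higher and 39.7% lower at 12 h, and 26.5% and 28% at 48 h. COPE, the epsilon subunit of the coatomer, led at 48 h through the brightest probe sets. It read 9.13, 9.24 and 9.14 in CdCl cells at 12 h, against 8.83, 8.77 and 8.98 in control cells. The 48 h arrays gave 9.94, 10.08 and 9.95 in CdCl cells, against 9.22, 9.11 and 9.14 in control cells. No array of 1 group reached the other at either time. The rise was 0.31 ± 0.07 at 12 h (adjusted p = 0.0045) and 0.84 ± 0.07 at 48 h (1.79-fold, adjusted p = 2.6e-06).

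ARF4, a small GTPase of the Golgi, read 12.77, 12.70 and 12.86 in CdCl cells at 12 h, against 12.35, 12.25 and 12.17 in control cells. The rise was 0.52 ± 0.07 at 12 h (1.43-fold, adjusted p = 9e-05) and 0.40 ± 0.07 at 48 h (1.32-fold, adjusted p = 0.00063). ARCN1, the delta subunit, was higher by 0.27 and 0.35. COPA, COPB2 and COPZ1, of the alpha, beta prime and zeta subunits, were higher by 0.44, 0.38 and 0.35 at 48 h. Their 12 h differences of -0.07, 0.15 and 0.12 were not called. The difference between the times was called for COPA (0.51 ± 0.10, adjusted p = 0.002) and not for COPB2 (0.23 ± 0.09, adjusted p = 0.057) or COPZ1 (0.23 ± 0.13, adjusted p = 0.18). With arrays centred on the tested genes, COPB2 and COPZ1 were called higher at 12 h too (0.30, adjusted p = 0.0045, and 0.27, adjusted p = 0.019). As deposited, the dimmer probe set of COPA was called higher at 12 h, with the value given further on. COPB1, of the beta subunit, differed by -0.10 and 0.03, with no call.

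The gamma subunit has paralogues. COPG1 read 8.48, 8.82 and 8.57 in CdCl cells at 48 h, against 8.14, 8.10 and 8.31 in control cells, a rise of 0.44 ± 0.12 (1.36-fold, adjusted p = 0.0097). At 12 h COPG1 read 7.49, 7.78 and 7.77 in CdCl cells and 7.72, 8.08 and 7.94 in control cells, with no call (-0.23 ± 0.12, adjusted p = 0.13). COPG2 stayed near the filter level of 4. It read 3.72, 4.48 and 4.45 in CdCl cells and 4.32, 4.93 and 4.04 in control cells at 12 h, and 4.05, 4.33 and 4.47 in CdCl cells and 4.33, 4.30 and 4.32 in control cells at 48 h. A change of COPG2 was not detectable at this signal, with 95% intervals of -0.72 to 0.30 at 12 h and -0.54 to 0.48 at 48 h.

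The second question was whether the CdCl effect differed between the times, tested as the effect at 48 h minus that at 12 h. It was larger at 48 h for 17 members and smaller for 4, while 27% and 13% of all tested genes were called in those directions. The median was 0.18, against 0.13 for all tested genes. TMED3 had the largest positive value with 0.99 ± 0.10 (adjusted p = 3.5e-05), then SEC24C with 0.73 ± 0.12 (adjusted p = 0.00079), COPG1 with 0.67 ± 0.17 (adjusted p = 0.01) and SEC13 with 0.60 ± 0.10 (adjusted p = 0.00086). Through the brightest probe sets, all 4 members with a smaller effect at 48 h stood in the COPII group. They were SEC24A with -1.14 ± 0.09 (adjusted p = 7.2e-06), SEC24D with -1.05 ± 0.34 (adjusted p = 0.029), SEC22B with -0.43 ± 0.16 (adjusted p = 0.049) and SEC24B with -0.38 ± 0.11 (adjusted p = 0.016). Through dimmer sets alone, 5 more had a smaller effect (SEC63, SSR3, SPCS3, LMAN1 and SEC23B) and 4 a larger one. COPA was called in both directions, with 0.51 through its brightest set and -1.85 through its other (adjusted p = 0.027 over all probe sets). The call of SEC24D ended without CdCl replicate 3 or control replicate 1 or 3 at 12 h, or control replicate 1 or 2 at 48 h (-0.88 to -1.05, adjusted p of 0.054 to 0.071). That of SEC22B held only without CdCl replicate 1 at 12 h or CdCl replicate 1 or 3 at 48 h (adjusted p of 0.058 to 0.1 without any of the others). That of SRPRA, 0.38, ended without CdCl replicate 1 or 3 or control replicate 2 at 12 h, or CdCl replicate 2 or control replicate 1 or 2 at 48 h (adjusted p of 0.053 to 0.068). That of SRP14, 0.27, held only without control replicate 2 or 3 at 12 h or CdCl replicate 2 at 48 h (adjusted p of 0.062 to 0.091 without any of the others). That of TMED2, 0.27, held only without CdCl or control replicate 3 at 12 h, or CdCl replicate 2 or 3 or control replicate 2 at 48 h (adjusted p of 0.052 to 0.079 without any of the others).

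The members also changed with time in culture without CdCl. In control cells at 48 h against control cells at 12 h, 32 of the 44 were higher, 3 lower and 9 not called, where 23.4% of all tested genes were higher and 33.5% lower. The median was 0.47 for the members and -0.06 for all tested genes. Signs of RNA quality moved with this comparison: the 3′ minus 5′ signal of ACTB was 1.56, 1.57 and 1.36 in control cells at 48 h, against 1.71, 2.11 and 1.89 in control cells at 12 h, and that of GAPDH was 0.01, -0.04 and 0.0, against 0.02, 0.15 and 0.20. Neither overlapped, and their part in the result was not tested. In CdCl cells the ACTB values were 1.67, 1.40 and 1.82 at 48 h and 1.69, 1.73 and 1.80 at 12 h, which overlapped. Through the brightest probe sets, SEC11C rose most in control cells, by 1.93 ± 0.08 (3.82-fold, adjusted p = 8.2e-09). It was followed by SEC24D with 1.27 ± 0.24 (2.41-fold, adjusted p = 0.00079), SEC61A1 with 1.15 ± 0.08 (2.22-fold, adjusted p = 2.1e-07) and SEC24A with 1.07 ± 0.06 (2.10-fold, adjusted p = 7.9e-08). The 12 h CdCl comparison and the time comparison in control cells share the control arrays of 12 h, on which SEC24A and SEC24D were lowest. The 3 that fell were SPCS3, SRP14 and SAR1A. SPCS3, a subunit of the signal peptidase, read 10.46, 10.72 and 10.61 in control cells at 48 h, against 11.61, 11.70 and 11.60 in control cells at 12 h, and fell by 1.04 ± 0.08 (2.06-fold lower, adjusted p = 6.7e-07). SRP14 read 12.15, 12.12 and 12.15 at 48 h, against 12.67, 12.50 and 12.49 at 12 h, and fell by 0.41 ± 0.07 (adjusted p = 0.00029). SAR1A fell by 0.38 ± 0.08 (adjusted p = 0.0018). Without control replicate 1 at 48 h, SPCS1, SEC24B, SEC13 and COPZ1 were no longer called (0.20, 0.24, 0.21 and 0.26, adjusted p of 0.051 to 0.061). SPCS1 and COPZ1 were not called either without control replicate 2 or 3 at 12 h, nor SEC24B without control replicate 2 at 12 h or at 48 h (adjusted p of 0.051 to 0.096).

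In CdCl cells at 48 h against CdCl cells at 12 h, 34 members were higher, 2 lower and 8 not called, against 34.7% and 27.6% of all tested genes. The median was 0.65, against 0.05. Of the members, 28 were higher over time in CdCl and in control cells, as were 17.3% of all tested genes. SEC11C again changed most, by 2.46 ± 0.08 (5.48-fold, adjusted p = 1.7e-09). Through their brightest probe sets, the 8 receptors all rose over time in CdCl cells, and 5 of them in control cells. TMED3, KDELR1 and KDELR3 were the 3 not called in control cells, with differences of 0.01, -0.17 and 0.13, and they rose by 1.01, 0.39 and 0.65 in CdCl cells. SEC24A and SEC24D were the reverse, with -0.07 and 0.22 and no call in CdCl cells, against rises of 1.07 and 1.27 in control cells. The dimmer sets of KDELR3 were called in opposite directions, with -1.07 and 0.38 in control cells and -0.50 and 0.74 in CdCl cells. SSR3 also had sets called in both directions in CdCl cells, with 0.73 through its brightest set and -0.41 through 1 of the others. Without CdCl replicate 2 at 48 h, SEC24D was called in CdCl cells too (0.53, adjusted p = 0.026), as was SEC22B (0.25, adjusted p = 0.031). The fall of SAR1A over time in CdCl cells, -0.26, ended without CdCl replicate 3 at 12 h (adjusted p = 0.063) or CdCl replicate 2 at 48 h (adjusted p = 0.052). The rise of SEC23B, 0.29, held only without CdCl replicate 2 or control replicate 2 or 3 at 48 h (adjusted p of 0.056 to 0.17 without any of the others).

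**Figure D4:**
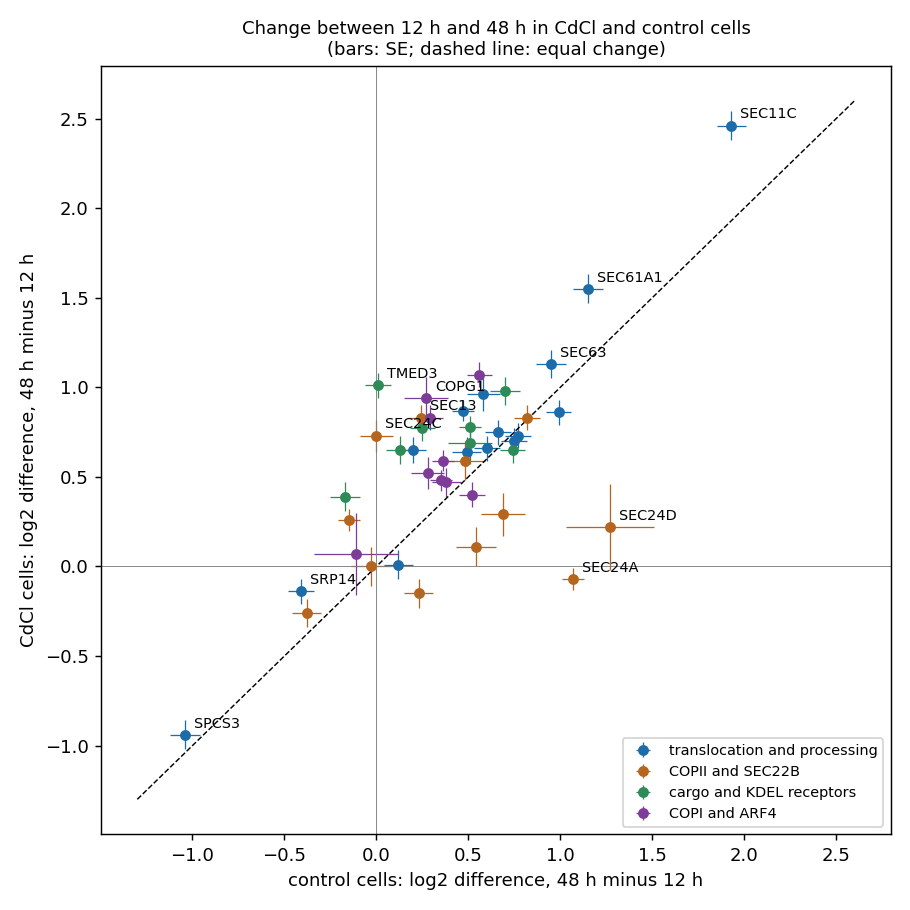
Log2 difference between 48 h and 12 h in CdCl cells (vertical) against that in control cells (horizontal), with SE, for the 44 genes coloured by group; the dashed line marks equal change. SEC11C and SEC61A1 lie highest, above the line as TMED3, SEC24C, COPG1 and SEC13 do, and SEC24A and SEC24D lie far below it.

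The genes around the members in the pathway were read from lists chosen with earlier results known. Of 97 other tested pathway genes, which leave out the transcription factors given last, 18 were higher in CdCl cells and 34 lower at 12 h. At 48 h, 40 were higher and 12 lower. The all-gene shares given above, 16.7% higher and 39.7% lower at 12 h and 26.5% and 28% at 48 h, are the background for these and the following counts, and no list was tested as a whole. The median difference of the 97 was -0.07 at 12 h and 0.13 at 48 h, against -0.16 and -0.02 for all tested genes. Of 9 other translocation genes, 1 was higher and 2 lower at 12 h, and 4 were higher and 1 lower at 48 h. SRP19 was higher by 0.55 at 12 h and SRP54 by 0.56 at 48 h, both proteins of the SRP. SEC11A, the paralogue of SEC11C, was lower at both times, with differences of -0.25 (adjusted p = 0.0018) and -0.31 (adjusted p = 0.00043), opposite in sign to SEC11C. Of 12 genes of the oligosaccharyltransferase, which adds sugar chains at the channel, 3 were higher and 4 lower at 12 h, and 7 were higher and 0 lower at 48 h, led by DAD1 with 0.62 and STT3A with 0.54.

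The ER membrane complex and the GET pathway insert other membrane proteins, the GET pathway those with an anchor at the tail. Of 15 tested genes, 4 were higher and 4 lower at 12 h, and 10 were higher and 1 lower at 48 h. EMC3 was higher by 0.77 at 48 h, and CAMLG, a receptor of the GET pathway, fell by 0.79. Among 18 other COPII and ER exit genes, 4 were higher and 3 lower at 12 h and 7 were higher and 2 lower at 48 h. PREB, the exchange factor of SAR1, averaged 8.82 ± 0.09 in CdCl cells and 7.81 ± 0.06 in control cells at 48 h (SD, n = 3 each), a rise of 1.02 ± 0.08 (2.02-fold, adjusted p = 8.3e-07). MCFD2, the partner of LMAN1, was higher by 0.56 at 12 h.

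Of 13 other COPI and ARF genes, 1 was higher and 9 lower at 12 h, and 2 were higher and 5 lower at 48 h. Their median difference was -0.41 at 12 h and -0.10 at 48 h, against -0.16 and -0.02 for all tested genes. ARFGAP2, which triggers hydrolysis on ARF, averaged 5.17 ± 0.25 in CdCl cells and 6.23 ± 0.04 in control cells at 12 h and fell by 1.06 (adjusted p = 5.7e-05). GBF1, the exchange factor of ARF at the early Golgi, averaged 5.71 ± 0.37 and 6.73 ± 0.13 in the same groups and fell by 1.02 (adjusted p = 0.00078). COPZ2, the paralogue of COPZ1, fell by 1.06 at 48 h, where COPZ1 was higher by 0.35. TMED6, a p24 gene, averaged 2.65 ± 0.28 in CdCl cells and 5.80 ± 0.28 in control cells at 48 h. All 3 CdCl arrays lay under 4, so that TMED6 was at least 3.48-fold lower, with the CdCl group set to 4. The limma test was run on the deposited values, those under 4 included (difference -3.15, adjusted p = 2.2e-07). At 12 h TMED6 averaged 3.74 ± 0.29 in CdCl cells and 4.27 ± 0.32 in control cells, so it passed the filter mainly through control arrays.

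Of 30 SNAREs and tethers, 5 were higher and 12 lower at 12 h, shares close to those of all tested genes (16.7% and 39.7%), and 10 were higher and 3 lower at 48 h, against 26.5% and 28%. YKT6, a SNARE of ER-Golgi and Golgi traffic, averaged 8.50 ± 0.08 in CdCl cells and 7.50 ± 0.26 in control cells at 12 h, and 9.49 ± 0.22 and 7.81 ± 0.26 at 48 h. It rose by 1.01 ± 0.16 (2.01-fold, adjusted p = 0.00021) and 1.68 ± 0.16 (3.21-fold, adjusted p = 3.5e-06). BET1, another ER-Golgi SNARE, was higher by 0.69 at 12 h (adjusted p = 3.8e-06). Of 7 tested transcription factors known to act on secretory genes, 3 were higher and 2 lower at 12 h. XBP1 averaged 9.68 ± 0.05 in CdCl cells and 8.39 ± 0.06 in control cells at 12 h, a rise of 1.29 ± 0.12 (2.44-fold, adjusted p = 6.2e-06), which reads its total RNA and not its spliced form. CREB3L2, known from mouse cartilage to activate Sec23a, was higher by 0.98 ± 0.07 at 12 h (1.97-fold, adjusted p = 9e-07). The 2 that fell at 12 h were CREB3L4 and ATF6, ATF6 being named after its value was seen. CREB3L4 averaged 3.76 ± 0.19 in CdCl cells, under the filter level of 4, and 5.26 ± 0.16 in control cells (difference -1.49, adjusted p = 7.1e-07). ATF6 averaged 7.30 ± 0.12 in CdCl cells and 7.95 ± 0.11 in control cells (difference -0.65, adjusted p = 6.5e-05). At 48 h 1 was higher and 3 lower. The 1 that was higher was CREB3, with a rise of 0.87, so XBP1 and CREB3L2 were not called higher at 48 h. Among the 3, CREB3L4 and ATF6 fell by 1.11 and 0.49.

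The choice of probe set mattered for several members. Of the 44 genes, 26 had more than 1 probe set past the filter, 72 sets in all. At 12 h, the dimmer sets of 19 of the 26 genes all gave a higher difference than the brightest one, and the median spread within a gene was 0.39. At 48 h the same held for 20 of the 26, with a median spread of 0.21. The share of all genes with this order was not counted. The median difference of all tested genes also moved with the set, from -0.16 through the brightest to -0.12 through the second brightest at 12 h. At 48 h these medians were -0.02 and -0.01. Members not called through the brightest set were called higher through a dimmer one in 8 cases at 12 h (SEC63, SSR1, SPCS2, SPCS3, SAR1A, TMED2, TMED10 and COPA) and in 7 at 48 h (SEC63, SPCS2, SPCS3, SEC23B, SEC24A, TMED10 and KDELR1), with p adjusted over all probe sets. In the difference between the times, 9 members were called through a dimmer set alone, 4 with a larger and 5 with a smaller effect at 48 h. COPA gave -0.07 through its brightest set and 2.33 through its other. SPCS3 gave -0.15 through its brightest set and 0.69 and 1.26 through the others. SSR3 gave 0.29 through its brightest set and 0.03, 0.65 and 2.45 through the others. LMAN1 gave 0.28 against 1.34 and 1.54, SEC61A1 0.20 against 1.05, SRPRA 0.30 against 1.05 and TMED2 0.03 against 0.71 and 0.53. The rise of SEC24A at 12 h was read by both of its sets, with 1.27 and 1.60, and that of SEC23B by all 3 of its sets, with 0.34, 0.55 and 0.73. The second set of SEC24D, near the filter level, gave 0.08. Over all 90 probe sets of members past the filter, 39 were higher and 10 lower at 12 h, where 20% and 32.1% of 19005 probe sets were, and 53 were higher and 4 lower at 48 h, where 23.8% and 25.9% were. The fall of SEC62 at 48 h had the same sign in all 5 of its sets. No cause of the spread between probe sets was tested.

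**Figure D5:**
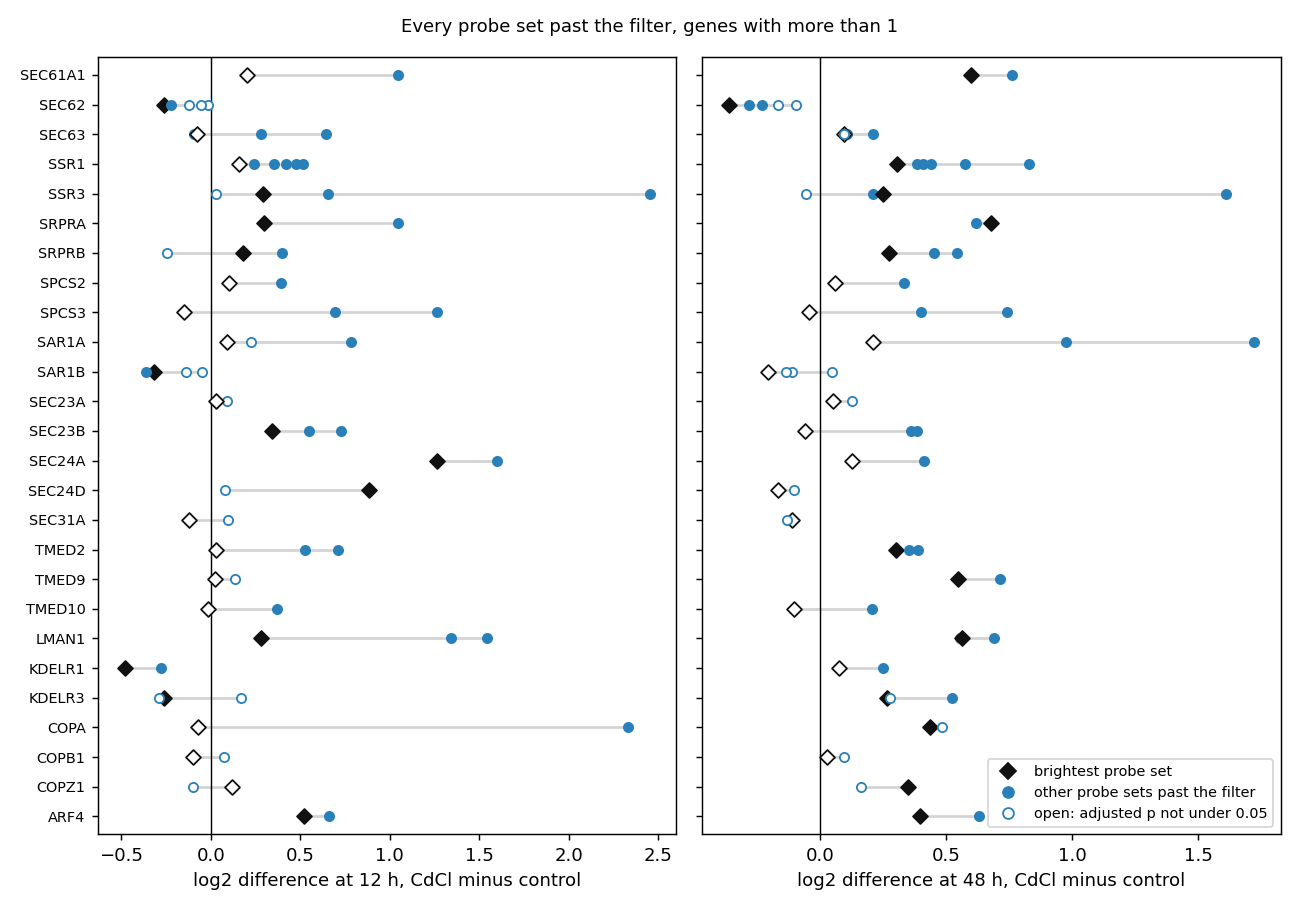
Log2 difference between CdCl and control cells at 12 h (left) and 48 h (right) for every probe set past the filter, for the 26 genes with more than 1; p-values here were adjusted over 19005 probe sets. Diamonds are the brightest set of a gene, circles the others, and filled marks passed the test. Most circles lie right of their diamond at both times, farthest for COPA and SSR3 at 12 h and SAR1A and SSR3 at 48 h.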

How the data were processed

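RNA of HK-2 cells was measured on 12 Affymetrix arrays of 54675 probe sets, 3 per group. The authors deposited a log2 signal for each probe set, made with GCRMA, per the submitters' processing notes; GCRMA corrects background by probe sequence, normalises between arrays and summarises probe sets. Its version was not given in the sources used here. The signals were used as deposited. Symbols came from the platform annotation: 41091 probe sets carried 1 symbol, 1801 several and 11783, controls included, none.

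From the values, 1 fit of the 4 group means over all 12 arrays (limma 3.58.1, R 4.3.3, lmFit and eBayes) gave two-sided log2 differences with SE for CdCl against control at 12 h and 48 h, their difference, and 48 h against 12 h in control and CdCl cells. Adjustment was by Benjamini-Hochberg over 10683 genes above 4 on at least 3 arrays, with a threshold of 0.05. No paired design was used. Detection calls were not used, and precision is limited by the number of arrays. The fit was tested on simulated data.

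The members and lists were chosen with earlier results of these data known. Array values are given for up to 8 rises and 5 falls per CdCl comparison among called members whose arrays do not overlap, for up to 4 per direction of the interaction and of the control time course, and for the paralogues of SAR1, SEC23, SEC24, COPG and KDELR. From each list of other genes up to 3 with the largest change per time were eligible. The alternatives were other normalisations, filters, probe set rules, thresholds, a replicate block and leaving out each array.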

Additional observations from a re-analysis of the deposited data

Results flagged for a closer look

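For 21 members the CdCl effect at 48 h differed from that at 12 h by the interaction test (limma, adjusted p under 0.05, Benjamini-Hochberg over all tested genes), and each is given here as the log2 effect at 48 h minus that at 12 h. In translocation and signal peptide removal the values were 0.52 for SEC11C, 0.44 for SPCS1, 0.40 for SEC61A1, 0.40 for SSR4, 0.38 for SRPRA and 0.27 for SRP14. In the COPII group they were 0.73 for SEC24C, 0.60 for SEC13 and 0.41 for SEC16A, and -1.14 for SEC24A, -1.05 for SEC24D, -0.43 for SEC22B and -0.38 for SEC24B. Among the receptors they were 0.99 for TMED3, 0.56 for KDELR1, 0.53 for KDELR3, 0.52 for TMED9 and 0.27 for TMED2. In the COPI group they were 0.67 for COPG1, 0.53 for COPE and 0.51 for COPA.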

How the results depend on the processing

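Of 4918 values of members under the alternatives, 182 lost a call, 76 gained one and 23 changed sign with a call before or after. The other 4637 kept their side of the threshold, and a change of sign between values not called was counted among them. At an adjusted p under 0.01, 9 members were higher and 4 lower at 12 h, 1 had a smaller CdCl effect at 48 h, and 1 fell over time in CdCl cells. At an adjusted p under 0.05 and a change of at least 1.5-fold, 3 were higher and 0 lower at 12 h, and 5 higher and 0 lower at 48 h. In that setting 4 had a larger and 2 a smaller effect at 48 h, 14 rose and 1 fell over time in control cells, and 1 fell in CdCl cells. Shares of all tested genes at these stricter thresholds are not given here, so these counts have no background beside them. Centring on the tested genes, which moved the median of all genes at 12 h to -0.01, gave 23 higher and 2 lower members at 12 h and 4 that fell over time in CdCl cells. Of all 10700 genes tested in that setting, 2611 were higher and 2827 lower at 12 h, and 3248 fell over time in CdCl cells. Leaving out single arrays gave 2 to 4 members with a smaller effect at 48 h (2 without CdCl replicate 3 or control replicate 1 or 3 at 12 h, or control replicate 1 or 2 at 48 h) and 1 to 2 that fell over time in CdCl cells. With no filter, 2 had a smaller effect at 48 h. The mean of a gene's probe sets left 1 that fell over time in CdCl cells. The second brightest probe set gave 4 lower members at 12 h and 1 that fell over time in CdCl cells.

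The 23 changes of sign with a call before or after all came with the probe set rule. With the second brightest set, 12 h differences were 0.64 for SEC63, 0.69 for SPCS3, 0.37 for TMED10, 0.17 for KDELR3 and 2.33 for COPA, and 48 h differences -0.05 for SSR3, 0.74 for SPCS3 and 0.38 for SEC23B. The interaction was then -0.29 for SEC61A1, -0.43 for SEC63, -0.43 for SRPRA, -0.18 for TMED2 and -1.85 for COPA, and the change over time in CdCl cells 0.01 for SAR1A. With the mean over probe sets, 12 h differences were 0.60 for SPCS3 and 0.55 for COPA, 48 h differences 0.37 for SPCS3 and 0.23 for SEC23B, and interactions -0.02 for SRPRA, 0.35 for SEC22B, -0.08 for TMED2, -0.45 for LMAN1 and -0.32 for COPA. The cause was not tested.

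Replicates of equal number did not deviate together (correlations of -0.062, -0.003 and -0.029 at 12 h and -0.029, -0.336 and -0.234 at 48 h). A replicate block ended the calls of SEC61A1 (0.20, adjusted p = 0.067) and SRPRB (0.18, adjusted p = 0.051) at 12 h, of SEC22B at 48 h (0.30, adjusted p = 0.062), of SRP14 (0.27), SEC22B (-0.43) and TMED2 (0.27) in the interaction and of SEC23B over time in CdCl cells (0.29), and added COPG1 over time in control cells (0.27). The 3 arrays per group and the lack of detection calls limit what can be seen of dim genes such as COPG2.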
